A study of Mus musculus with 12 samples.

Results

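A set of 10 genes of the microtubule and actin cytoskeleton was followed in RAW264.7 cells, a macrophage-like line from mouse: 8 chains of cytoplasmic dynein 1 (Dync1h1, Dync1i2, Dync1li1, Dync1li2, Dynll1, Dynll2, Dynlrb1 and Dynlt3) and 2 GAS2-like genes (Gas2l1 and Gas2l3). They are the 10 of 53801 gene records whose symbol was on a list of these families, and all 10 were among the 13078 genes abundant enough to test. The set was selected on its family symbols and, for Dynll1 and Gas2l3, chosen by their higher FPKM after knockdown without LPS. Knockdown values of the 10 genes, and all values of this pair, are therefore given as a description without a test.

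RNA-seq was done on 4 groups of 3 libraries. Cells received a control siRNA or an siRNA against Synbindin, the Trappc4 product and part of the vesicle tether TRAPP. They were collected with no lipopolysaccharide (LPS, from the bacterial cell wall) or after 4 h in 100 ng/ml of it. All cells were at passages 3 to 5 and were grown in the same medium. Levels are in FPKM, fragments scaled to transcript length and to the mapped fragments of the library, so that levels of different genes can be compared per length. Differences are log2 fold changes of FPKM + 1, fitted with limma, with their standard error (SE).

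Cytoplasmic dynein 1 is the main motor that carries cargo toward microtubule minus ends, which in macrophages includes phagosomes, endosomes and lysosomes. Its heavy chain is the ATP-driven motor, the intermediate and light intermediate chains bind dynactin and cargo adaptors, and the light chains complete the tail of the complex. The LC8 light chain, encoded by Dynll1 and Dynll2, is also a dimeric hub that binds many proteins outside the motor. GAS2-like proteins pair an actin-binding domain with a GAS2-related, microtubule-binding domain. Gas2l1 acts at the centrosome and Gas2l3 at the spindle midzone and midbody during cell division.

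The 2 LC8 genes are shown first because their products are nearly the same protein while their messengers can be told apart. Their coding sequences (GENCODE M21 on GRCm38, bases in which the pair differs in capitals) are given 5′ to 3′.
Dynll1: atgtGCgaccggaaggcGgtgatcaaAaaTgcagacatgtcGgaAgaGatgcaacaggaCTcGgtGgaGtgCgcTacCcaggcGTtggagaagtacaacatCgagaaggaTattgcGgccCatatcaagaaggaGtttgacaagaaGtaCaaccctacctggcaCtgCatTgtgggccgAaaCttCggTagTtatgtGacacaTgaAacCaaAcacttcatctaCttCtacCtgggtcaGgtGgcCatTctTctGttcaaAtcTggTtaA
Dynll2: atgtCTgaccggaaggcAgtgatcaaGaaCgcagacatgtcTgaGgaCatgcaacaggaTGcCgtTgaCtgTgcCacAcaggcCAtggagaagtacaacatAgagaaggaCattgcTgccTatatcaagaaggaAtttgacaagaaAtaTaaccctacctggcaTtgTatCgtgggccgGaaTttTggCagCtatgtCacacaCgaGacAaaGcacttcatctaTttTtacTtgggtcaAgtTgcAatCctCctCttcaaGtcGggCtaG
Each has 270 bases, of which 51 differ, and 46 of these lie at the third base of a codon. The longest identical stretch is 16 bases. For runs of 50 bases, the coding transcript with the longest coding sequence was taken for each gene. That of Dynll1 shared no such run with any Dynll2 transcript, nor that of Dynll2 with any Dynll1 transcript. Dynll1 lies at chr5:115297110-115300999 on the minus strand and Dynll2 at chr11:87979525-87987533, also on the minus strand. Of the 50-base runs in the Dynll1 transcript taken, 3.03% also occurred in transcripts of other genes, against 0% for Dynll2 and 1.67% for Gas2l3. The shared runs occurred in 209 other genes for Dynll1 and 106 for Gas2l3. Most of those of Gas2l3 were shared with Zmynd8 (109 runs), which was at 5.94 to 19.5 FPKM over the libraries. Arcn1 shared 75 of its runs and was at 31.8 to 38.0 FPKM. How reads with several matches were counted is not given in the sources used here.

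The promoters of Dynll1 and Gas2l3 are also shown, since both genes were chosen for a higher level after knockdown without LPS. These are bases before the RefSeq start on GRCm38.p6, on the gene's strand, with the motif CCAAT (or ATTGG, its reverse) in capitals.
Dynll1 promoter, chr5:115301000-115301240, minus strand: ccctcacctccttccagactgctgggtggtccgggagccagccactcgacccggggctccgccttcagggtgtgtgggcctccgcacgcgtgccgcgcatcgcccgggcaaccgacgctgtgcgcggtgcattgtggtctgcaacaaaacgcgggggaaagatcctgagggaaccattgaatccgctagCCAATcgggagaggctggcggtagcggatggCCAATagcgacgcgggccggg
Gas2l3 promoter, chr10:89443968-89444217, minus strand: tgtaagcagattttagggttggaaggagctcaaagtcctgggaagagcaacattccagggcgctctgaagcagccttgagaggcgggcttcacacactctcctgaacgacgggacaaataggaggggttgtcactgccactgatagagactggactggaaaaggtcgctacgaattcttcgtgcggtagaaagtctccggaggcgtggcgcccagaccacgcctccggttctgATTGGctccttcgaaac
The Dynll1 stretch has 241 bases because the last 9 of its 250-base window lie inside the annotated gene. CCAAT stood 61 and 30 bases before the Dynll1 start and, in reverse, 17 bases before the Gas2l3 start. Among the 7 members with a RefSeq promoter these were the 2 with a match on either strand, and 33.8% of all 32851 promoter windows of 250 bases hold one. GGGCGG, the GC box, occurred in 6 of the 7 genes, against 32.7% of all windows. Dynlrb1 and Dync1i2 have more than 1 window, so counts of genes and shares of windows are unlike measures. In Dynll1 the GC box begins 10 bases before the start, so it runs into the 9 bases not printed. TTTGAA, 1 form of the cell cycle element called CHR, occurred in 0 of 7, against 16.0%. The form TTCGAA was not searched for, and it stands near the end of the printed Gas2l3 stretch. The motifs share no stretch with each other in these windows, and a match is a description of the letters only.

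The siRNA target was lower in every silenced library. Trappc4 was at 14.1, 13.1 and 12.5 FPKM in control cells and at 4.35, 7.17 and 6.15 FPKM in silenced cells without LPS. After LPS it was at 13.8, 15.7 and 9.45 FPKM in control cells and at 5.86, 7.71 and 8.26 FPKM in silenced cells. All silenced libraries lay below all control libraries under both conditions, with differences of -1.07 ± 0.19 (SE) without LPS and -0.74 ± 0.19 after it. Neither passed an adjusted p of 0.05 in limma (0.0558 and 0.12), and 28 genes without LPS and 94 after it did. All 8 macrophage markers were above 1 FPKM on average. In these bulk samples, fewer cells with a transcript and less of it per cell cannot be told apart. Those of T cells, neutrophils, fibroblasts and epithelial cells, 18 in all, were each below a mean of 1 FPKM, with Cd3d, Ly6g, Col1a2 and Cdh1 at 0 in every library.

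The order of the members by level was led by the light chain Dynlrb1 and the heavy chain Dync1h1 in control cells without LPS, at 57.2 ± 6.37 and 47.3 ± 8.72 FPKM (SD, n = 3). Their libraries overlapped. Next came Dynll1 at 17.8 ± 1.47, Dync1i2 at 16.4 ± 2.80 and Dync1li1 at 15.0 ± 1.57 FPKM, which also overlapped with each other. Dync1li2 (12.7 ± 1.49 FPKM), Dynll2 (11.9 ± 2.40), Dynlt3 (10.3 ± 1.72) and Gas2l3 (9.38 ± 2.08) followed as a run in which each neighbour overlapped the next. Gas2l1 was lowest at 6.25 ± 0.86 FPKM, below every Gas2l3 library, and it was lowest in all 4 groups. Knockdown without LPS moved Gas2l3 from place 9 to place 4 and Dynll1 from place 3 to place 2, and after LPS these 2 genes stood at places 7 and 3 (control) and 6 and 4 (silenced).

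**Figure D1:**
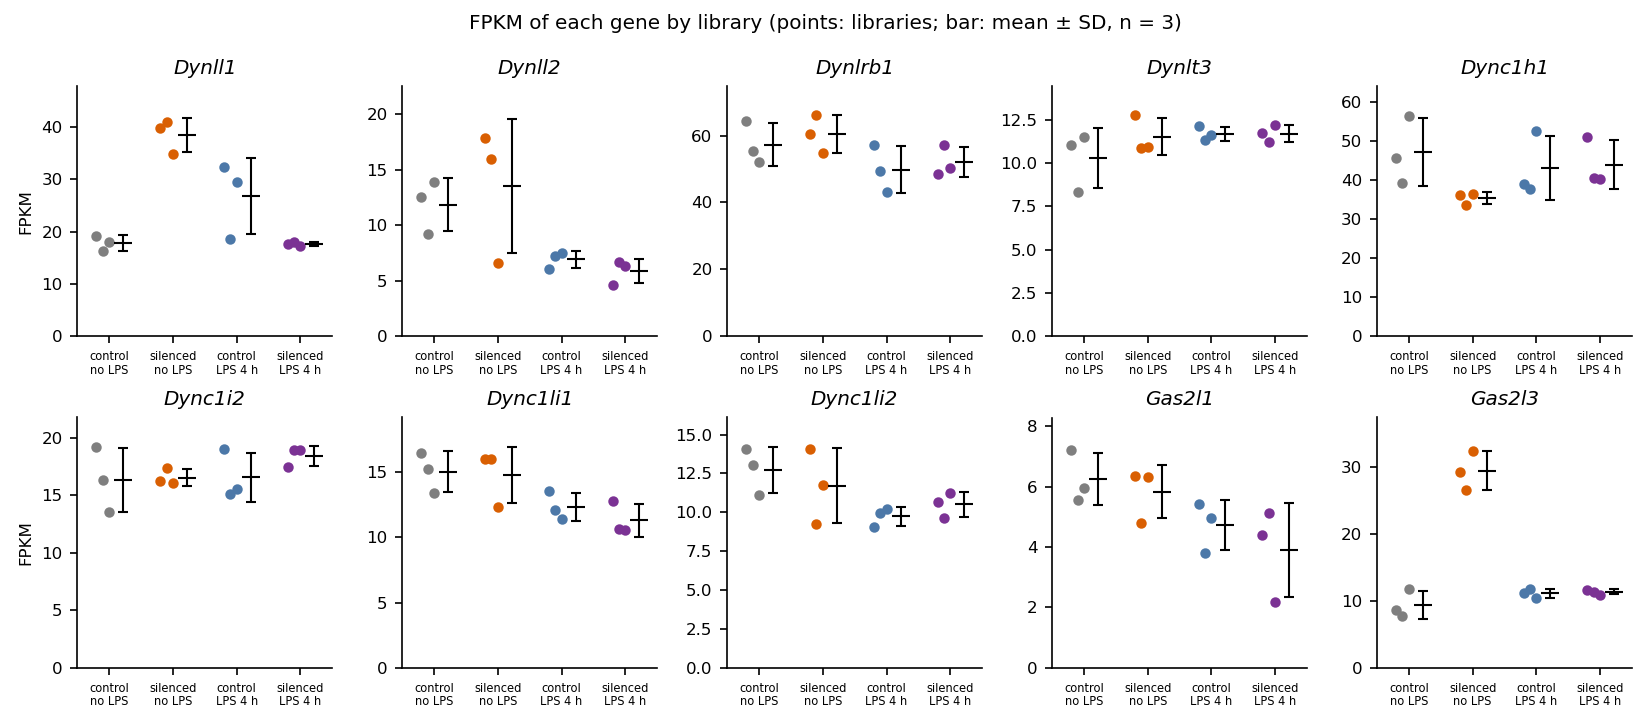
FPKM (vertical axis, linear, from 0) of the 10 genes in the 4 groups, with 1 point per library and the mean ± SD of 3 libraries beside them. Dynll1 and Gas2l3 stand highest in silenced cells without LPS, at 38.5 and 29.4 FPKM on average, while the other chains overlap between most groups.

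Gas2l3, at chr10:89408823-89443967 on the minus strand, gave the largest difference among the members. It was at 8.59, 7.80 and 11.7 FPKM in control cells and at 29.3, 26.6 and 32.4 FPKM in silenced cells without LPS. After LPS the values were 11.2, 11.7 and 10.5 FPKM in control cells and 11.7, 11.4 and 10.9 FPKM in silenced cells. The silenced libraries without LPS thus stood alone, and the other 9 libraries all lay between 7.80 and 11.7 FPKM. The mean without LPS was 3.14 times higher after knockdown, a difference of 1.57 ± 0.13 (95% interval 1.29 to 1.85), the 11th highest of 13078 genes. After LPS the knockdown difference was 0.03 ± 0.13 (-0.25 to 0.30). The silenced mean after LPS was 0.385 times that without it, a difference of -1.30 ± 0.13, and in control cells the LPS difference was 0.24 ± 0.13 with overlapping libraries.

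Dynll1, the LC8 light chain gene, was at 19.2, 16.3 and 18.0 FPKM in control cells and at 39.7, 40.9 and 34.8 FPKM in silenced cells without LPS. After LPS it was at 32.3, 18.6 and 29.6 FPKM in control cells and at 17.6, 18.1 and 17.2 FPKM in silenced cells. Its knockdown difference was thus of opposite sign under the 2 conditions, with no overlap in either. Without LPS it was 1.07 ± 0.16 (95% interval 0.71 to 1.43), 2.16 times in the means and the 39th highest of all genes. After LPS it was -0.54 ± 0.16, with a ratio of 0.658. That second value rests on spread-out control libraries, since 1 of them, at 18.6 FPKM, lay close to the highest silenced library, at 18.1 FPKM, and without it the difference was -0.77. LPS moved Dynll1 by 0.53 ± 0.16 in control cells, where libraries overlapped, and by -1.08 ± 0.16 in silenced cells, where they did not.

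The interaction, the LPS difference in silenced cells minus that in control cells, was -1.61 ± 0.23 for Dynll1 and -1.54 ± 0.18 for Gas2l3. They ranked 35th and 39th lowest of 13078 genes. By the threshold of an adjusted p under 0.05, 2 of the 10 members were past it without LPS, both higher, where 0.214% of all genes were past it and 0.122% in that direction. In the interaction 2 of 10 were past it, both lower, where 0.0612% of all genes were and 0.0229% in that direction. Under median-ratio scaling that was 1 of 10, and no gene at all was past it (0 of all tested, limma) without control library 1 or any 1 of the 3 silenced libraries after LPS. After LPS it was 0 of 10 for knockdown, where 0.719% were (limma; 1 of 10 at an unadjusted p under 0.05). The pair was chosen for these contrasts, so the counts describe the choice. Groups did not overlap for 3 of the 10 without LPS (Dynll1, Gas2l3 and Dync1h1), where 18.2% of all genes had no overlap, and for 1 of 10 after it (Dynll1), where 18.9% had none. Just inside that choice stood Dynll1, and the next largest difference without LPS was that of Dync1h1, at -0.39 ± 0.15 (-0.73 to -0.05). Over 22 other settings of the fit the difference without LPS stayed between 1.01 and 1.15 for Dynll1 and between 1.46 and 1.72 for Gas2l3. Dynll1 was no longer past the threshold in 9 of the 22, among them those without any 1 of the control libraries without LPS, silenced library 1 or 2 without LPS or silenced library 2 after LPS, and Gas2l3 in 1. Macrophage marker Lyz2, which encodes lysozyme, was also higher in silenced cells without LPS (1.11 ± 0.17, adjusted p = 0.0283). The summed level of the 8 macrophage markers was 1558 to 1679 FPKM in control libraries, against 2151 to 2603 FPKM in silenced ones. Lyz2 carried most of that gap, with means of 554 and 1214 FPKM, followed by Cd14 with 187 and 291 FPKM. Of the 8 markers 1 passed and 5 had a positive difference. Csf1r, Cd68, Adgre1, Fcgr3 and Spi1 differed by 0.02, 0.06, -0.02, -0.08 and -0.13. Itgam differed by 1.28 ± 0.99 (limma, adjusted p = 0.641), with widely spread control libraries (18.6 ± 19.4 FPKM, SD). After LPS Lyz2 was also higher, by 1.22 ± 0.17 (adjusted p = 0.0121), and the Lyz2 call without LPS was lost under quantile normalization (adjusted p = 0.063). The part of these markers in the levels of Dynll1 and Gas2l3 was not tested. The rough depth was 7.86 to 11.6 M fragments in control and 7.36 to 16.2 M in silenced libraries without LPS, and with depth as a covariate, an alternative chosen after seeing the data, the differences were 1.03 for Dynll1 and 1.49 for Gas2l3.

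**Figure D2:**
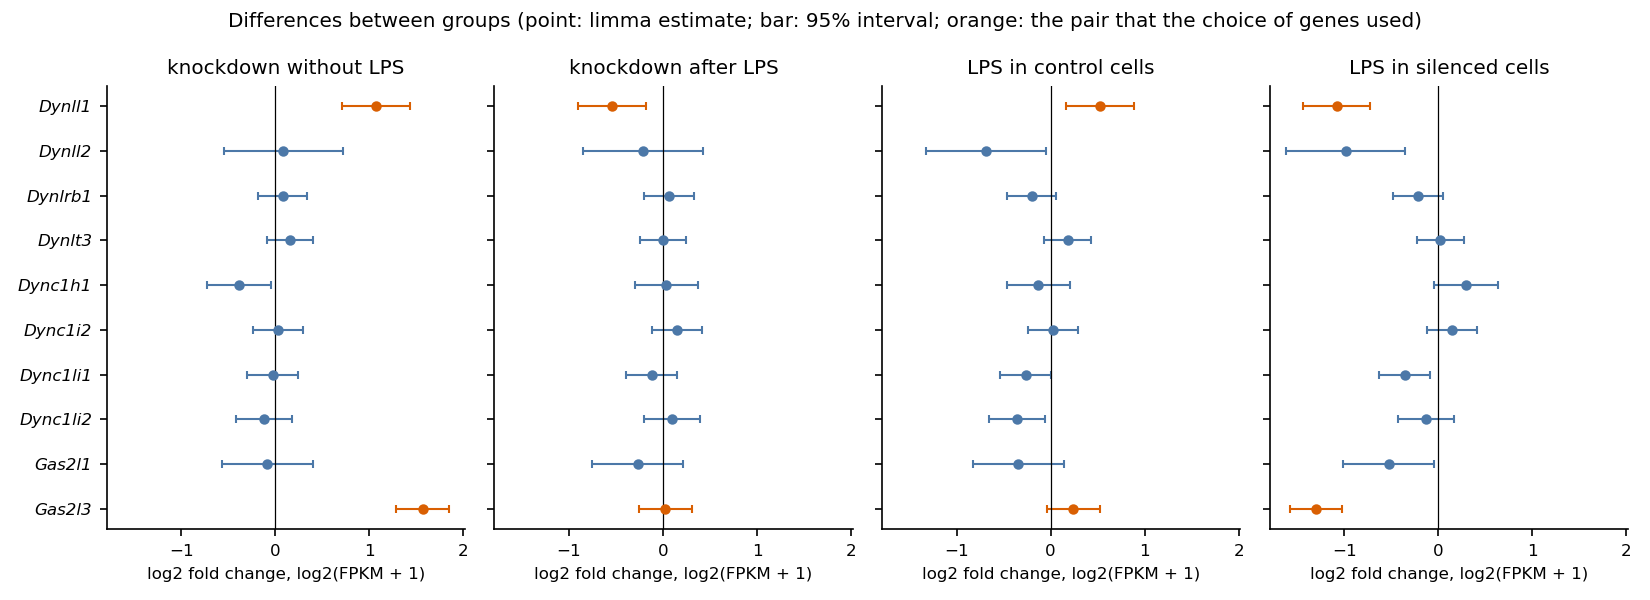
Log2 fold changes of FPKM + 1 (horizontal axis) of the 10 genes in 4 comparisons, as limma estimates with 95% intervals over 12 libraries. Dynll1 and Gas2l3 (orange), the pair chosen by knockdown without LPS, stand at 1.07 and 1.57 in that panel. The other genes lie there between -0.39 (Dync1h1) and 0.16 (Dynlt3). Intervals in the knockdown panels are a description and not a test.

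Dynll2, the second LC8 gene, did not move with Dynll1 on knockdown. Its levels were 12.5, 9.20 and 13.8 FPKM in control cells and at 17.9, 16.0 and 6.64 FPKM in silenced cells without LPS. With LPS they were 6.04, 7.25 and 7.48 FPKM in control cells and 4.61, 6.70 and 6.33 FPKM in silenced cells. The third silenced library without LPS was the lowest of its group and fell among the LPS libraries. The knockdown difference was 0.09 ± 0.29 without LPS, or 0.50 without that library and -0.16 without the first silenced one, and -0.21 ± 0.29 after LPS. LPS lowered Dynll2 in silenced cells by the test (-0.98 ± 0.29, adjusted p = 0.0147), although that library lay within the LPS range. In control cells the LPS difference was -0.68 ± 0.29 (adjusted p = 0.0707) with all LPS libraries lower, and it passed when that same silenced library was left out of the shared spread (adjusted p = 0.00556). The call in silenced cells was lost with median-ratio scaling (adjusted p = 0.0563), with quantile normalization (0.0661), and without silenced library 1 or 2 without LPS (0.0644 and 0.0605) or silenced library 1 after LPS (0.0557).

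The 2 genes together gave an LC8 messenger pool of 29.7 ± 3.64 FPKM in control cells and 52.0 ± 9.12 FPKM in silenced cells without LPS. Dynll1 was chosen by its difference between these groups, so the gaps in pool and in share between them follow in part from that choice. After LPS the pool was 33.7 ± 6.89 and 23.5 ± 1.28 FPKM. The share of Dynll1 in that pool was 60.3% ± 3.70 (56.5% to 63.9%) in control cells without LPS. It was 75.0% ± 7.96 in silenced cells without LPS, 78.7% ± 6.24 in control cells after LPS and 75.1% ± 3.60 in silenced cells after LPS, and no library of these groups was below 69.0%. Dynll1 thus held the larger share in all 12 libraries, and its share was lowest in the 3 control libraries without LPS.

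**Figure D3:**
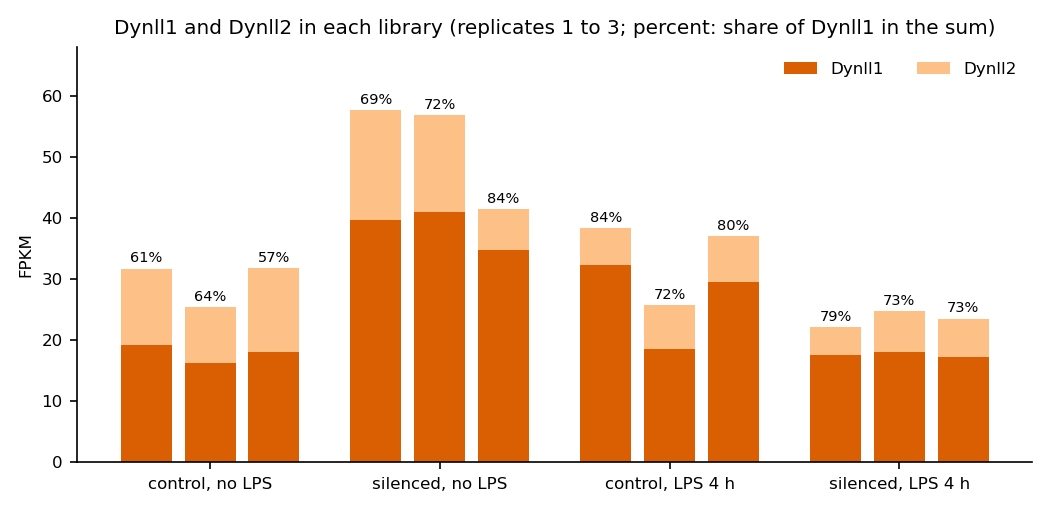
Stacked FPKM (vertical axis, from 0) of Dynll1 and Dynll2 in each of the 12 libraries, with the percent share of Dynll1 above each bar. The 3 silenced libraries without LPS have the largest pools, and the share is 56.5% to 63.9% in control cells without LPS and at least 69.0% elsewhere. Dynll1 was chosen by its knockdown difference without LPS, so the gap between those groups follows in part from the choice.

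The motor subunit itself, Dync1h1 (chr12:110601452-110666945, plus strand), was at 45.9, 39.4 and 56.7 FPKM in control cells and at 36.4, 33.8 and 36.5 FPKM in silenced cells without LPS. With LPS the levels were 39.1, 37.7 and 52.7 FPKM in control cells and at 51.2, 40.5 and 40.5 FPKM in silenced cells. All 3 silenced libraries without LPS lay below all others in the series. The knockdown difference was -0.39 ± 0.15 without LPS and 0.04 ± 0.15 after it. Without the highest control library the first value was -0.25. LPS gave 0.29 ± 0.15 in silenced cells (adjusted p = 0.138), where all LPS libraries were the higher ones, and -0.13 ± 0.15 in control cells (adjusted p = 0.516). Under median-ratio scaling the value in silenced cells was 0.57 (adjusted p = 0.0126) and that in control cells turned to 0.10.

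Dync1i2, the intermediate chain that ties the tail to dynactin, had group means close to each other. Its group means were 16.4 ± 2.80, 16.5 ± 0.72, 16.6 ± 2.11 and 18.4 ± 0.86 FPKM, in the order control and silenced without LPS, then control and silenced after LPS. The LPS differences were 0.02 (adjusted p = 0.889) in control and 0.15 (adjusted p = 0.335) in silenced cells, and in the latter all LPS libraries were the higher ones. Under median-ratio scaling the value in silenced cells was 0.42 (adjusted p = 0.0127). Dync1i1, the other intermediate chain gene, was listed at 0 in all groups.

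The light intermediate chains, which link dynein to its cargo adaptors, had lower means after LPS in both backgrounds. Dync1li1 was at 16.5, 15.3 and 13.4 FPKM in control cells and at 16.0, 16.0 and 12.3 FPKM in silenced cells without LPS, and at 13.5, 12.1 and 11.4 and at 12.8, 10.6 and 10.5 FPKM after it. It fell in silenced cells by 0.35 ± 0.12 on the log2 scale (adjusted p = 0.0328), with overlapping libraries, and the difference in control cells was -0.27 ± 0.12 (adjusted p = 0.097). The call was lost in 9 of 22 other settings, among them median-ratio scaling (-0.09, adjusted p = 0.544), and without silenced library 1 or 2 without LPS (adjusted p = 0.112 and 0.113) or silenced library 2 or 3 after LPS (0.0996 and 0.103). Dync1li2 was at 14.1, 13.0 and 11.1 FPKM in control cells without LPS and at 9.04, 9.96 and 10.2 FPKM after it, with no overlap, but its difference of -0.35 ± 0.14 just missed the threshold (adjusted p = 0.0504). In silenced cells it was at 14.1, 9.27 and 11.8 FPKM without LPS and at 10.7, 9.61 and 11.2 FPKM after it, a difference of -0.13 ± 0.14 (adjusted p = 0.468) that was 0.13 under median-ratio scaling. The control cell difference of Dync1li2 passed without control library 3 without LPS (adjusted p = 0.0317) and without silenced library 1 or 2 without LPS (0.0286 and 0.0228). For both chains, control and silenced libraries overlapped with and without LPS.

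The remaining light chains gave small differences. Dynlrb1, of the roadblock family, ranged over 52.1 to 64.4 FPKM (control) and 54.8 to 66.1 FPKM (silenced) without LPS, and over 43.1 to 57.1 and 48.6 to 57.1 FPKM after LPS. Its LPS differences, -0.20 in control cells (adjusted p = 0.191) and -0.21 in silenced cells (adjusted p = 0.167), changed sign under median-ratio scaling (0.03 and 0.06) and passed the test under quantile normalization (-0.39 and -0.36). Dynlt3, of the Tctex family, was at 8.31 to 11.5, 10.8 to 12.8, 11.3 to 12.1 and 11.2 to 12.2 FPKM in the same order. Its LPS differences were 0.18 ± 0.11 in control cells (adjusted p = 0.209) and 0.02 in silenced cells (adjusted p = 0.884). Under median-ratio scaling and quantile normalization the former passed the test (adjusted p = 0.0126 and 0.0333).

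Gas2l1 (chr11:5054132-5065327, minus strand), the centrosomal relative of Gas2l3, did not share its pattern. It was at 7.21, 5.57 and 5.96 FPKM in control cells and at 6.36, 4.81 and 6.32 FPKM in silenced cells without LPS. LPS-treated control cells had 5.41, 3.81 and 4.95 FPKM, and LPS-treated silenced cells 4.39, 5.14 and 2.17 FPKM. Knockdown differences were -0.09 ± 0.22 without LPS and -0.27 ± 0.22 after it, the latter 0.02 without the library at 2.17 FPKM. LPS gave -0.34 ± 0.22 in control cells (adjusted p = 0.221), with all LPS libraries lower, and -0.53 ± 0.22 in silenced cells (adjusted p = 0.0691, or 0.0237 without silenced library 2 after LPS). Rasl10a overlaps Gas2l1 on the opposite strand.

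The LPS calls of the 8 members other than Dynll1 and Gas2l3 were read against those of all genes. In control cells 0 of 8 passed in limma (2 at an unadjusted p under 0.05), where 48.2% of all genes passed. In silenced cells 2 of 8 passed, both lower, where 48.5% did and 35.5% in that direction. Their median LPS differences were -0.23 in control and -0.17 in silenced cells, beside -0.17 and -0.21 over all genes. Groups did not overlap for 3 of the 10 members in control cells (Dynll2, Dync1li2 and Gas2l1, lower after LPS), and for 4 of 10 in silenced cells (Dync1h1 and Dync1i2 higher, Dynll1 and Gas2l3 lower), against 56.2% and 57.8% of all genes. The direction depended on scaling: median-ratio scaling moved the median of all genes from -0.17 to 0.02 in control and from -0.21 to 0.02 in silenced cells, and the members that then passed were Dynlt3 in control cells and Dync1h1 (0.57) and Dync1i2 (0.42) in silenced cells, all higher.

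Genes around the motor were counted in the same way. The 40 tested genes were those for other dynein chains, dynactin, and dynein adaptors and regulators. For knockdown 0 of 40 passed without LPS, 0 after it and 0 in the interaction (limma, with 6, 6 and 3 at an unadjusted p under 0.05). Over all genes 0.214%, 0.719% and 0.0612% passed, so these counts do not set the 40 apart. For LPS 48.2% of all genes passed in control cells and 48.5% in silenced cells, where 35.5% were lower. After LPS 25 of 40 passed in control cells, 6 higher and 19 lower, and 23 of 40 in silenced cells, 4 higher and 19 lower. Under median-ratio scaling these became 9 higher and 16 lower, and 8 higher and 9 lower. The medians of the 40 were -0.22 and -0.28, beside -0.17 and -0.21 over all genes.

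Among other dynein chains, 6 of 9 tested fell after LPS in control cells and 3 of 9 in silenced cells. Of all genes 48.2% and 48.5% passed in either direction. The Dynlt1 genes, which encode a second Tctex-type light chain, are near-identical copies, so their separate levels are uncertain. The record with the highest level, Dynlt1, went from 81.0 ± 12.2 to 47.6 ± 2.76 FPKM in control cells (-0.75 ± 0.11, adjusted p = 0.000226). Dynlt1f had the largest knockdown difference of the list, from 56.0 ± 5.19 to 36.6 ± 1.62 FPKM without LPS (-0.60 ± 0.13, adjusted p = 0.103). Dync2h1 and Wdr60, heavy and intermediate chains of the ciliary dynein 2 motor, also fell in control cells (-0.50 ± 0.12 and -0.72 ± 0.15, adjusted p = 0.00429 and 0.0017), the former call being lost under quantile normalization (adjusted p = 0.123). Of 18 axonemal dynein and cilium genes in the table, 0 passed the filter on low values. Under median-ratio scaling 0 of the 9 chains passed in silenced cells.

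Dynactin, the cofactor that makes dynein processive, split by subunit. After LPS 2 of 12 subunits rose and 3 fell in control cells, and 1 rose and 5 fell in silenced cells. As 48.2% and 48.5% of all genes passed, these counts do not set dynactin apart. Capza2, an actin capping subunit, rose from 39.5 ± 0.66 to 55.2 ± 0.98 FPKM in control cells (0.47 ± 0.07, adjusted p = 0.000141) and by 0.62 ± 0.07 in silenced cells (adjusted p = 1.78e-05). Dctn4 fell by 0.57 ± 0.13 in control and 0.53 ± 0.13 in silenced cells (adjusted p = 0.00306 and 0.00451), calls that were each lost under another scaling. Under median-ratio scaling 5 subunits were higher and 1 lower in control cells, so the direction of the complex as a whole turns with the scaling.

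Of 19 adaptors and regulators, 4 rose and 10 fell after LPS in control cells, and 3 rose and 11 fell in silenced cells. The shares of all genes that passed were 48.2% and 48.5%. Numa1, which anchors dynein at spindle poles and the cell cortex, fell from 29.4 ± 1.60 to 9.54 ± 0.93 FPKM in control cells (-1.53 ± 0.15, adjusted p = 7.07e-06). Spdl1, the kinetochore adaptor Spindly, fell by 1.11 ± 0.13 (adjusted p = 2.9e-05), and the adaptor Hook3 fell by 0.89 ± 0.11 (adjusted p = 3.88e-05). Nde1, a dynein regulator, fell from 26.3 ± 2.34 to 11.3 ± 2.25 FPKM in silenced cells (-1.16 ± 0.14, adjusted p = 3.29e-05).

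Atmin, a zinc finger protein that drives Dynll1 transcription and binds LC8, was counted with the LC8 partners. They gave 0 of 9 calls for knockdown without LPS, where 0.214% of all genes passed (limma, with 0 at an unadjusted p under 0.05). Without LPS Atmin averaged 15.4 ± 1.26 FPKM in control cells, against 18.0 ± 0.82 FPKM after knockdown (0.21 ± 0.12, adjusted p = 0.505), and at 7.99 ± 0.85 and 6.66 ± 1.15 FPKM after LPS. LPS lowered it by 0.87 ± 0.12 in control cells and by 1.32 ± 0.12 in silenced cells (adjusted p = 8.87e-05 and 3.52e-06). After LPS 1 of the 9 rose and 5 fell in control cells, and 1 rose and 6 fell in silenced cells. The shares of all genes past the threshold for LPS were 48.2% and 48.5%. Nek9 fell by 0.61 ± 0.09 and Mre11a by 0.56 ± 0.10 in control cells (adjusted p = 0.000211 and 0.00079). The only riser was Bcl2l11, which encodes the LC8-bound apoptosis protein Bim. It went from 4.15 ± 0.68 to 14.0 ± 2.42 FPKM in control cells (1.54 ± 0.31, adjusted p = 0.00161) and rose by 1.95 ± 0.31 in silenced cells (adjusted p = 0.000308).

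GAS2 relatives and other actin-microtubule linkers gave 0 of 13 knockdown calls without LPS, where 0.214% of all genes passed (limma, with 2 at an unadjusted p under 0.05). After LPS 5 rose and 7 fell in control cells (5 and 3 under median-ratio scaling, 4 and 5 under quantile normalization). For LPS in control cells 48.2% of all genes passed. Gas2 itself was low, at 1.91 FPKM without and 1.12 FPKM with LPS in control cells, and Gas2l2 was at 0 in 3 of the 4 groups. The spectraplakins, large linkers that carry the same GAS2-related domain, went in opposite directions. Macf1 fell from 57.5 ± 10.5 to 23.0 ± 3.27 FPKM in control cells (-1.28 ± 0.15, adjusted p = 3.5e-05), and Dst rose from 4.55 ± 0.25 to 10.5 ± 1.10 FPKM (1.04 ± 0.14, adjusted p = 8.86e-05). The microtubule plus-end proteins Clip1 and Clasp2 fell by 0.71 ± 0.10 and 0.75 ± 0.11 (adjusted p = 0.000107 and 0.000208).

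Since Gas2l3 acts in cell division, 33 genes of mitosis and cytokinesis were set beside it. None passed for knockdown without LPS (limma, 0 of 33, with 1 at an unadjusted p under 0.05). As 0.214% of all genes passed there, that count does not set the list apart from other genes. Their median difference was 0.02, beside 0.01 over all genes. After LPS 32 of 33 fell in control cells (median -1.15) and 33 of 33 in silenced cells (median -1.39). No member of the list rose under any of 3 other scalings. Of all genes 48.2% and 48.5% passed for LPS, with medians of -0.17 and -0.21. Mybl2, a transcription factor of the late cell cycle, fell by 1.56 ± 0.18 in control cells (adjusted p = 3.1e-05), and Ect2, which starts the cleavage furrow, by 1.55 ± 0.19 (adjusted p = 4.41e-05). Gas2l3 in control cells was at 9.38 ± 2.08 FPKM without and 11.1 ± 0.64 FPKM with LPS. In silenced cells it was at 29.4 ± 2.88 FPKM without and 11.3 ± 0.37 FPKM with LPS, a difference of -1.30 ± 0.13. The silenced libraries without LPS are those whose high values chose this gene.

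Transport kinesins, most of which run opposite to dynein, gave 0 calls of 18 for knockdown without LPS (limma, with 3 at an unadjusted p under 0.05). They gave 1 after it, Kif1c (-0.51 ± 0.09, adjusted p = 0.0296, or 0.082 under quantile normalization). Over all genes 0.214% passed without LPS and 0.719% after it. After LPS 11 of 18 fell in each of control and silenced cells and none rose, with 1 higher in control cells under median-ratio scaling. For LPS 48.2% and 48.5% of all genes passed in either direction. Kifc3, a kinesin that moves toward minus ends as dynein does, fell from 14.1 ± 1.65 to 2.30 ± 0.53 FPKM (-2.20 ± 0.15, adjusted p = 6.97e-07) and Kif21b from 7.96 ± 0.45 to 1.35 ± 0.08 FPKM (-1.93 ± 0.12, adjusted p = 2.75e-07) in control cells. Of 12 tubulins, 0 passed for knockdown without LPS, where 0.214% of all genes did (limma, with 4 at an unadjusted p under 0.05). Of the 12, 11 had a positive difference, with a median of 0.20 beside 0.01 for all genes. After LPS 3 tubulins rose and 2 fell in control cells, and 1 rose and 8 fell in silenced cells (4 and 1, and 2 and 4, under median-ratio scaling). These counts too stand beside 48.2% and 48.5% of all genes. Tuba8 rose from 1.17 ± 1.15 to 23.3 ± 2.89 FPKM in control cells (3.61 ± 0.31, adjusted p = 3e-06), and Tubb5 fell from 253.8 ± 3.11 to 144.8 ± 21.1 FPKM (-0.82 ± 0.14, adjusted p = 0.000451).

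**Figure D4:**
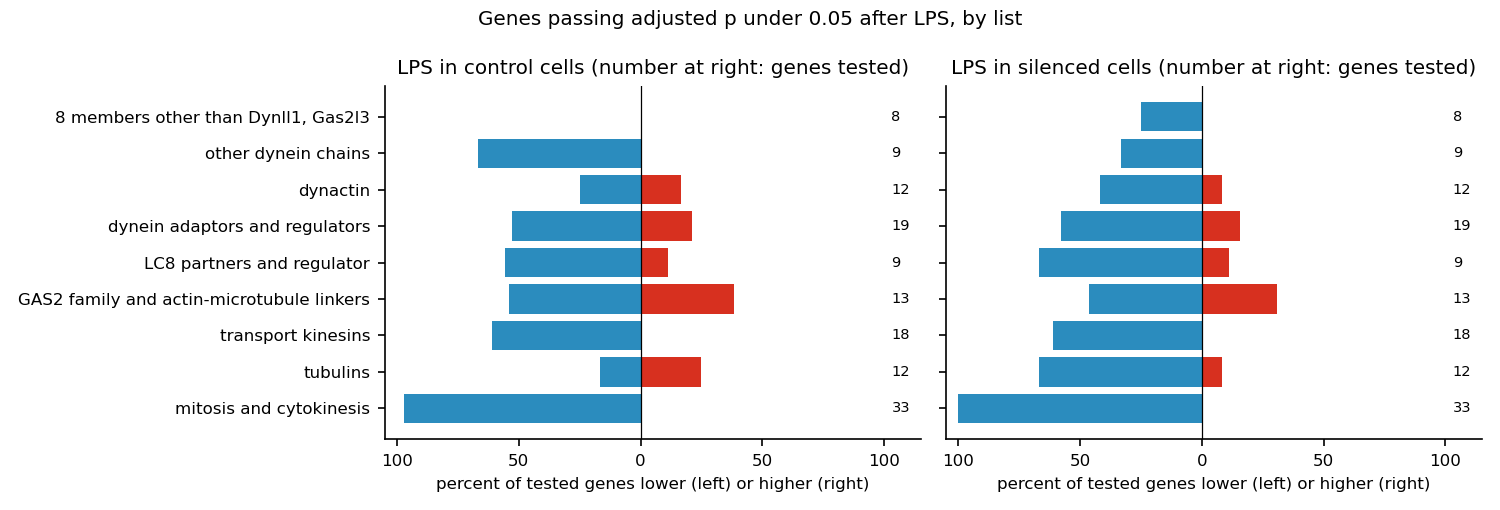
Percent of tested genes of each list that passed an adjusted p under 0.05 after LPS, lower to the left (blue) and higher to the right (red), in control and silenced cells, with the number tested at the right. The 8 members have 0 and 2 calls, while mitosis and cytokinesis genes have 32 and 33 of 33, all lower. Over all genes 48.2% and 48.5% passed. Under median-ratio scaling the 8 members had 1 and 2 calls, all higher.

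Likeness to the pair was described by the correlation of log2(FPKM + 1) over the 12 libraries with 6630 genes of a mean of at least 5 FPKM. The 12 points share their group structure, so no p is given. Dynll1 was most like Colgalt1 (r = 0.868), Cebpz (0.86), Nubp1 (0.841), Bnip2 (0.818) and Dmap1 (0.805). Gas2l3 was most like Rin2 (r = 0.921), Msmo1 (0.904), Yipf7 (0.901), Hsd17b11 (0.896) and Ganab (0.892). All of these had their highest group mean in silenced cells without LPS. They were picked for likeness to a pair chosen by its level there, so the shared peak follows from the choice. Their levels moved less than those of the pair: Rin2 went from 13.6 to 17.4 FPKM and Colgalt1 from 25.2 to 32.3 FPKM on knockdown without LPS. Among pairs of members the correlation of Dynll1 with Gas2l3 was 0.794, which includes the libraries whose high values chose both genes. Of the other pairs it was 0.727 for Dynll2 with Dync1li1, 0.703 for Dynlrb1 with Dync1li1 and lowest for Dynlrb1 with Dync1h1 (-0.558).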

How the data were processed

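Gene FPKM were deposited by the authors for 12 libraries (53801 records). Per the submitters' processing notes, HISAT2 and StringTie were used with the build GRCm38; versions, order and counting rules are not given in the sources read. FPKM are not counts, and steps in low values did not give whole reads (per library, 9.99% to 15.8% of them were whole to within 1%), so no count test was run. The depth those steps imply is rough: 7.36 to 17.6 M fragments per library, lowest in control cells without LPS (mean 9.13 M) and highest in silenced cells after LPS (15.2 M).

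The filter kept genes reaching FPKM 1 in 3 or more libraries, which were tested with limma 3.58.1 (R 4.3.3) on log2(FPKM + 1), with a pseudocount of 1, 1 mean per group, an intensity trend, 8 residual degrees of freedom and 2-sided tests. Benjamini-Hochberg adjustment ran over all 13078 genes, with 0.05 as the threshold. The log scale understates changes of low genes. The script was tested on simulated data.

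The members and gene lists were chosen with earlier results of these data known. Members get no p in knockdown comparisons or the interaction, nor do Dynll1 and Gas2l3 after LPS. Named are the members, Trappc4, per list and comparison up to 4 called genes with the smallest p or else the 2 with the smallest p, and the 5 genes most like Dynll1 and Gas2l3. Gas2, Gas2l2, Dync1i1, Lyz2 and the marker genes were named after their values were seen. Sequences come from GENCODE M21 and RefSeq (7 of 10 members had a promoter). No label states that libraries of a group came from separate cultures, so the p-values reflect a spread that may be technical. One marker list is not reported here.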

Additional observations from a re-analysis of the deposited data

How the results depend on the processing

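The fit was repeated with a pseudocount of 0.1, no filter, a stricter filter (FPKM of at least 5), 3 scalings, the replicate number as a block, the compared groups alone, no intensity trend, each library left out and, chosen after seeing the data, the estimated depth as a covariate. Of the 8 members, 0 passed after LPS in control cells, where 48.2% of all genes did. That count was 1 with the stricter filter, a common sum, median-ratio scaling, the replicate block or the depth covariate, 2 with quantile normalization or the compared groups alone, and 0 to 1 with each library left out. It was 1 without control library 3 without LPS and 1 without any of the 3 silenced libraries without LPS. In silenced cells 2 passed, where 48.5% of all genes did. That count was 1 with no filter, quantile normalization, the compared groups alone or the depth covariate, and 0 to 2 with each library left out. It was 0 without silenced library 1 or 2 without LPS and 1 without silenced library 1 or 3 after LPS. With median-ratio scaling it was again 2, but of Dync1h1 and Dync1i2, both higher, in place of Dynll2 and Dync1li1. With quantile normalization the 1 call was Dynlrb1, lower (limma, adjusted p = 0.023), and those of Dynll2 and Dync1li1 were both lost. The cause was not tested.

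Of the 40 other dynein and dynactin genes, 0 passed for knockdown without LPS, and 1 with quantile normalization. After LPS 19 to 27 passed in control and 17 to 25 in silenced cells over all alternatives. Among all genes, 28 passed for knockdown without LPS, against 48 with the replicate block, 10 with no intensity trend, 9 with the depth covariate and 6 with the compared groups alone. That count was 3 to 41 with each library left out: 3, 5 and 41 without control library 1, 2 and 3 without LPS, 10 and 4 without silenced library 1 and 2 without LPS, 8 and 11 without control library 1 and 2 after LPS, and 7 without silenced library 2 after LPS. After LPS 94 passed for knockdown, against 38 with quantile normalization, 50 with no trend, 18 with the depth covariate and 0 with the compared groups alone. With each library left out it was 10 to 91, and from 10 to 34 without control library 1 or 2 or any silenced library after LPS. For the interaction 8 passed, against 5 with a pseudocount of 0.1 and 4 with no trend. With each library left out it was 0 to 20: 0 without control library 1 or any 1 of the silenced libraries after LPS, 4 and 20 without control library 2 and 3 after LPS, and 3 to 5 without control library 1 or 2 or silenced library 2 without LPS. With median-ratio scaling 3215 of 6068 LPS calls in control cells were higher, against 1997 of 6300, and 2975 of 5799 in silenced cells, against 1698 of 6337. The Dynll1 difference without LPS missed the threshold in 9 of 22 alternatives (no filter, no trend, the depth covariate, and without any 1 of the control libraries without LPS, silenced library 1 or 2 without LPS, or silenced library 2 after it), and that of Gas2l3 in 1, the compared groups alone.

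The labels give replicate numbers but no shared culture or day, and whether the numbers pair the libraries was not settled. Deviations of same-numbered libraries correlated at -0.03 to 0.19, positive in 14 of 18, and 16 of 24 comparisons were best with the own number. As not every pair was over 0.1, the reported fit has no block. With the block, Dync1li1 passed in control cells after LPS (adjusted p = 0.021), and the block changed no other LPS call among the 8 members. Depth was estimated only roughly, so no counting interval is given.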
